A study of Mus musculus with 6 samples.

Results

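Hba-x, Hbb-y and Hbb-bh1, which encode embryonic globins, and 7 further genes of red cells (Alas2, Slc4a1, Rhag, Klf1, Gata1, Nfe2 and Epor) are described here in embryoid bodies (EBs) treated with retinoic acid (RA). They are 10 of the 19938 genes that the arrays could name. They were listed by symbol, each was read on its brightest probe set with 1 gene symbol, and they were chosen by their levels at day 0, day 3 and day 4 on these same arrays. Their levels and changes are therefore given as a description and were not tested.

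EBs are floating aggregates in which embryonic stem (ES) cells leave the pluripotent state. They came from the established mouse ES cell line R1, seeded without leukaemia inhibitory factor at a density of 35000 cells per ml. EBs that were 4 days old received RA, a derivative of vitamin A, at a dose of 2 μM. The groups were EBs taken before RA (day 0), EBs kept in RA for 3 days (day 3) and EBs kept in RA for 4 days (day 4), with 2 samples per day, each on an Affymetrix Mouse Gene 1.0 ST array of its own. Every group was of R1 EBs, and age-matched EBs without RA were not analysed here, so the effect of RA cannot be told apart from that of time. Arrays of 1 day carry numbers, and nothing in the labels ties these to separate cultures, so errors and p-values cover only the spread between arrays, which may be technical. The methods describe biological replicates of day 0 and day 4 RNA for sequencing, but do not say whether the arrays used them. Values are log2 intensities, so a difference of 1 is a 2-fold difference. The labels call the cells ES cells. All 13 stem cell markers measured were lower at day 3 (limma, adjusted p of 0.05 or below), among them Pou5f1, with 10.27 and 10.20 on the day 0 arrays, 6.31 and 6.01 at day 3, then 6.16 and 6.13 at day 4. The array medians were 6.69 to 6.85, and the lowest correlation across genes between arrays of the same day was 0.999 when rounded.

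The first red cells of the mouse embryo, the primitive erythroid cells, arise in the blood islands of the yolk sac and carry haemoglobins built from embryonic chains. Hba-x encodes the alpha-like zeta chain, and Hbb-y and Hbb-bh1 encode the beta-like chains epsilon-y and beta-h1. Haem is made in a pathway whose first step in red cells is catalysed by Alas2. The transcription factors Gata1 and Klf1 switch on globin, haem and membrane genes by binding GATA and CACCC motifs, and erythropoietin, through its receptor Epor, maintains red cell precursors.

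Promoters are shown for 5 genes that were at least 2-fold higher at day 3 than at day 0 and for Gata1, which was not. They are the 250 bases before the transcription start in RefSeq (assembly GRCm38.p6), 5′ to 3′ on the strand of the gene, and 7 of the 10 genes were matched in the RefSeq promoter table. Capitals mark every match, on either strand, to the GATA motifs AGATAA and TGATAA, the KLF motif CCNCNCCC, TATAA and CCAAT. The Hba-x promoter lies at chr11:32276350-32276599 on the plus strand, that of Hbb-y at chr7:103853208-103853457 (minus), Alas2 at chrX:150547167-150547416 (plus), Rhag at chr17:40810899-40811148 (plus), Klf1 at chr8:84901732-84901981 (plus) and Gata1 at chrX:7967911-7968160 (minus).
Hba-x: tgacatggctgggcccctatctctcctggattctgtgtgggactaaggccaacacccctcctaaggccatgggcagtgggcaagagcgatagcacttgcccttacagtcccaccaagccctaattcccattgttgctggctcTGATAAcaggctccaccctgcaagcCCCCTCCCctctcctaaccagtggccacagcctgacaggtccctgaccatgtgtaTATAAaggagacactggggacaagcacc
Hbb-y: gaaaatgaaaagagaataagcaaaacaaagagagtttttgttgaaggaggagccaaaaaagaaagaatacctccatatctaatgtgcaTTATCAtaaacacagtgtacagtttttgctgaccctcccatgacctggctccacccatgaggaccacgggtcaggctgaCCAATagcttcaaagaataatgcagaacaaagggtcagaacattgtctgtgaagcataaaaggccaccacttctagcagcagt
Alas2: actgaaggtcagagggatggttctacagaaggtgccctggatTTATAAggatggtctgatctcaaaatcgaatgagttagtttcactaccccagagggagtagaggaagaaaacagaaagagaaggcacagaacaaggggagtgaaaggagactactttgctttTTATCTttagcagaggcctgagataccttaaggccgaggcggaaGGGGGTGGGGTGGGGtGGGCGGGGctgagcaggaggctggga
Rhag: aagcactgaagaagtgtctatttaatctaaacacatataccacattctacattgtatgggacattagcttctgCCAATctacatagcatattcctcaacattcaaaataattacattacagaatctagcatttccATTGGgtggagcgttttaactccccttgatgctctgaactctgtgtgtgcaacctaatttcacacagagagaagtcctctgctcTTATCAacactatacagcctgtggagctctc
Klf1: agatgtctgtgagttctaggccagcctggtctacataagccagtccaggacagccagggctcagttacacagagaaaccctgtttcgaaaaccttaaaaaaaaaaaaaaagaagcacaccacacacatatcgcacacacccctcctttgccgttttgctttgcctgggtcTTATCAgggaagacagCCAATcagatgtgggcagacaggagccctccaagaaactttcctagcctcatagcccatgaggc
Gata1: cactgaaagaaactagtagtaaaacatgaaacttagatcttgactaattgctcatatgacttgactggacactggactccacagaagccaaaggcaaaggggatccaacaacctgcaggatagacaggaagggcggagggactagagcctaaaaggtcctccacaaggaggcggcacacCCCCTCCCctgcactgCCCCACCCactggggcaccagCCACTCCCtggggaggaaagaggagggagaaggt
A GATA motif of either kind was found in 6 of the 7 matched promoters, that is in all but Gata1, and in 16.6% of 32851 promoters of the same length. Counted from the transcription start, it lay at −108 to −103 in Hba-x, −162 to −157 in Hbb-y, −86 to −81 in Alas2, −31 to −26 in Rhag, −80 to −75 in Klf1 and −54 to −49 in Epor. Epor, whose promoter is not printed, was only 1.17-fold higher at day 3 than at day 0. Among the matched genes without a 2-fold rise, Epor thus held a GATA motif and Gata1 did not. Whether the motif bears on the changes was not tested. AGATAA was in 2 of the 7 and in 9.99% of all promoters, and TGATAA in 4 of the 7 and in 7.94%. The KLF motif was in 4 of the 7 (Hba-x, Alas2, Gata1 and Epor) and in 45.9% of all promoters, and its matches in Alas2 and Epor partly overlap each other. The shorter CACCC was not searched for, and it stands unmarked in the printed windows of, for example, Hbb-y and Klf1. TATAA was in Hba-x and Alas2 (22.8% of all promoters), and CCAAT in Hbb-y, Rhag and Klf1 (33.8%). TGAGTCA and TGACTCA, the reverse complements of each other, which NFE2 and AP1 can bind, had no match in the 7 windows and was in 4.46% of all promoters. A match describes letters in this window and is not a binding site.

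Hba-x and Hbb-y showed the largest changes of the 10 genes relative to day 0. Hba-x (probe set 10375046) gave 7.05 and 6.92 on the day 0 arrays, 13.13 and 13.06 on those of day 3, and 11.63 and 11.41 on those of day 4. The arrays of the 3 days did not overlap, with day 3 highest and day 0 lowest. The level was 69.2-fold higher at day 3 than at day 0 (log2 change 6.11, SE 0.09) and 2.98-fold lower at day 4 than at day 3 (log2 change −1.58). Since the RNA is that of whole EBs, a change in the number of red cells and a change of RNA per cell cannot be told apart, here and in every value that follows.

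Hbb-y (10566272) followed the same course. It lay at 6.47 and 6.81 at day 0, 12.92 and 12.57 at day 3, then 10.99 and 10.79 at day 4. Its level was 68.8-fold higher at day 3 than at day 0 (log2 change 6.10, SE 0.15) and 3.61-fold lower at day 4 than at day 3 (−1.85). Both genes were still far above day 0 at day 4, by 4.54 (SE 0.09) for Hba-x and 4.25 (SE 0.15) for Hbb-y. These are 23.2-fold and 19.0-fold, against 69.2-fold and 68.8-fold at day 3. On the log2 scale 74.2% and 69.6% of the rise was left, which is not a share of the RNA.

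Hbb-bh1 (10566268), the other embryonic beta-like gene, differed from this. Its values were 9.45 and 9.0 at day 0, 12.36 and 12.25 at day 3, then 10.02 and 9.78 at day 4. The day 3 arrays stood apart, and the day 4 arrays were only slightly above those of day 0. The change was 3.08 (SE 0.15) at day 3 versus day 0, an 8.46-fold rise, and −2.40 at day 4 versus day 3, a 5.29-fold fall. Its day 0 mean of 9.23 was above those of Hba-x (6.98) and Hbb-y (6.64). At day 4 a difference of 0.68 from day 0 was left, which is 22.0% of the log2 rise. The difference was 0.90 without day 0 replicate 1 and 0.45 without day 0 replicate 2. Whether probes of the globin genes also bind RNA of their near relatives was not tested.

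**Figure D1:**
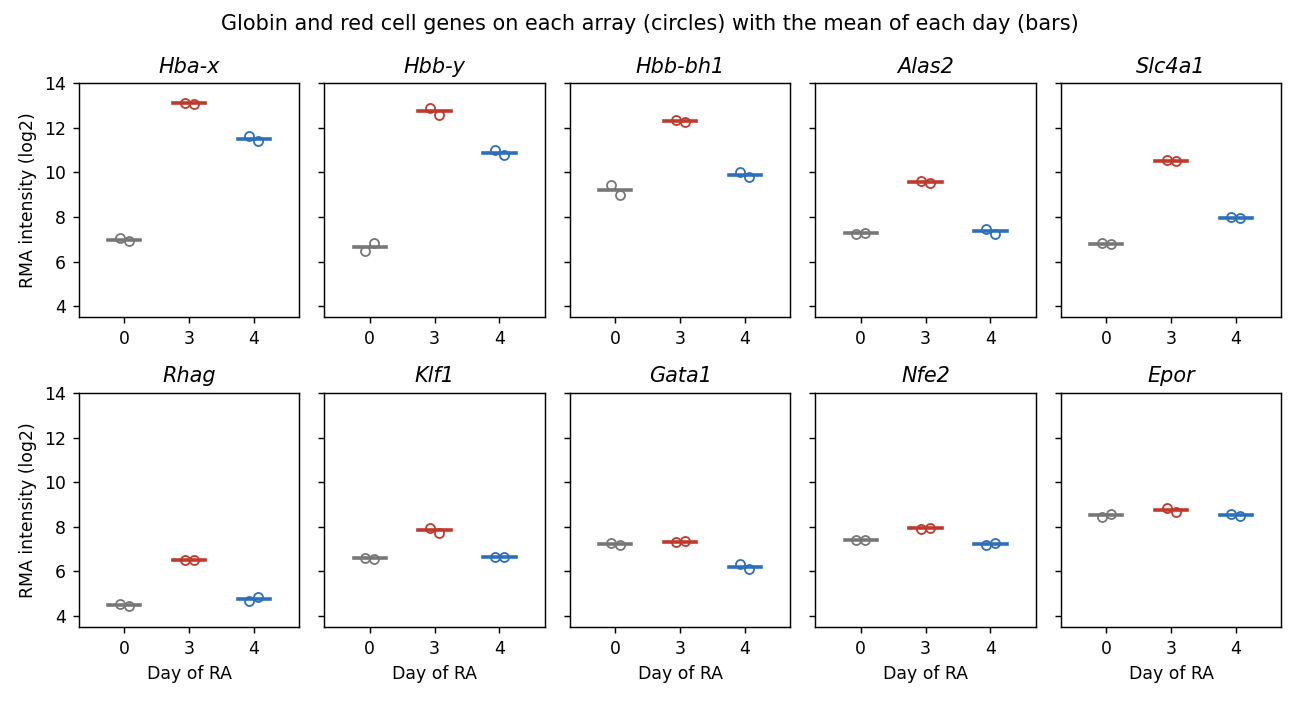
Log2 RMA intensity (vertical axis) of the 10 globin and red cell genes by day of RA (horizontal axis), with a circle for each of the 2 arrays of a day and a bar for their mean. Hba-x and Hbb-y stay at means of 11.52 and 10.89 at day 4, Hbb-bh1, Alas2, Slc4a1, Rhag and Klf1 come back towards their day 0 level, and Gata1 is lowest at day 4.

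The haem and membrane genes peaked at day 3 as well. Slc4a1 (10391649), which encodes band 3, the chloride and bicarbonate exchanger of the red cell membrane, lay at 6.84 and 6.78 at day 0, 10.55 and 10.52 at day 3, then 8.0 and 7.94 at day 4. The days did not overlap, and day 4 lay between the other two. The log2 change was 3.72 (SE 0.05) at day 3 versus day 0, a 13.2-fold rise, and −2.56 at day 4 versus day 3, a 5.91-fold fall. A difference of 1.16 from day 0 was left at day 4, which is 31.1% of the log2 rise.

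Alas2 (10602372), the red cell form of the first enzyme of haem synthesis, lay at 7.23 and 7.30 at day 0, 9.61 and 9.52 at day 3, then 7.48 and 7.23 at day 4. The day 4 and day 0 arrays overlapped, and both day 3 arrays were above them. It was 4.94-fold higher at day 3 than at day 0 (2.30, SE 0.09) and 4.63-fold lower at day 4 than at day 3 (−2.21), with a difference of 0.09 (SE 0.09) between day 4 and day 0.

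Rhag (10445192), the Rh-associated glycoprotein of the red cell membrane, lay at 4.54 and 4.46 at day 0, 6.50 and 6.52 at day 3, then 4.66 and 4.84 at day 4. It was the dimmest of the 10 probe sets, below 6 on the arrays of day 0 and day 4, where RMA compresses differences, so its folds may be understated. It was 4.05-fold higher at day 3 than at day 0 (2.02, SE 0.07) and 3.39-fold lower at day 4 than at day 3 (−1.76). The day 4 arrays were both above those of day 0, by 0.25 (SE 0.07).

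The 3 transcription factor genes differed among themselves. Klf1 (10573457), the Krüppel-like factor of red cells, lay at 6.62 and 6.56 at day 0, 7.96 and 7.73 at day 3, then 6.66 and 6.64 at day 4. It was 2.39-fold higher at day 3 than at day 0 (1.26, SE 0.08) and 2.29-fold lower at day 4 than at day 3 (−1.19), and day 4 differed from day 0 by 0.06 (SE 0.08). Like Alas2, it was back near its day 0 level at day 4.

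Gata1 (10603417), the zinc finger factor that red cells and megakaryocytes need, had 7.28 and 7.17 at day 0, 7.30 and 7.36 at day 3, then 6.32 and 6.10 at day 4. The day 3 arrays lay just above those of day 0, by 0.11 on average (SE 0.08), while both day 4 arrays were below all others. Gata1 was 2.17-fold lower at day 4 than at day 3 (−1.12) and 2.02-fold lower than at day 0 (−1.01). It was thus the member with the largest fall below its day 0 level.

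Nfe2 (10433096), which encodes the p45 subunit of a factor that binds globin control regions, had 7.42 and 7.40 at day 0, 7.91 and 7.97 at day 3, then 7.20 and 7.27 at day 4. It was 1.45-fold higher at day 3 than at day 0 (0.54, SE 0.05) and 1.63-fold lower at day 4 than at day 3 (−0.71), and its day 4 arrays lay 0.17 below those of day 0. The receptor gene Epor (10591660) moved least, with 8.46 and 8.57 at day 0, 8.83 and 8.67 at day 3, then 8.58 and 8.49 at day 4. Its differences were 0.23 at day 3 versus day 0, −0.21 at day 4 versus day 3 and 0.02 at day 4 versus day 0 (SE 0.08), and the arrays of day 4 and day 0 overlapped.

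**Figure D2:**
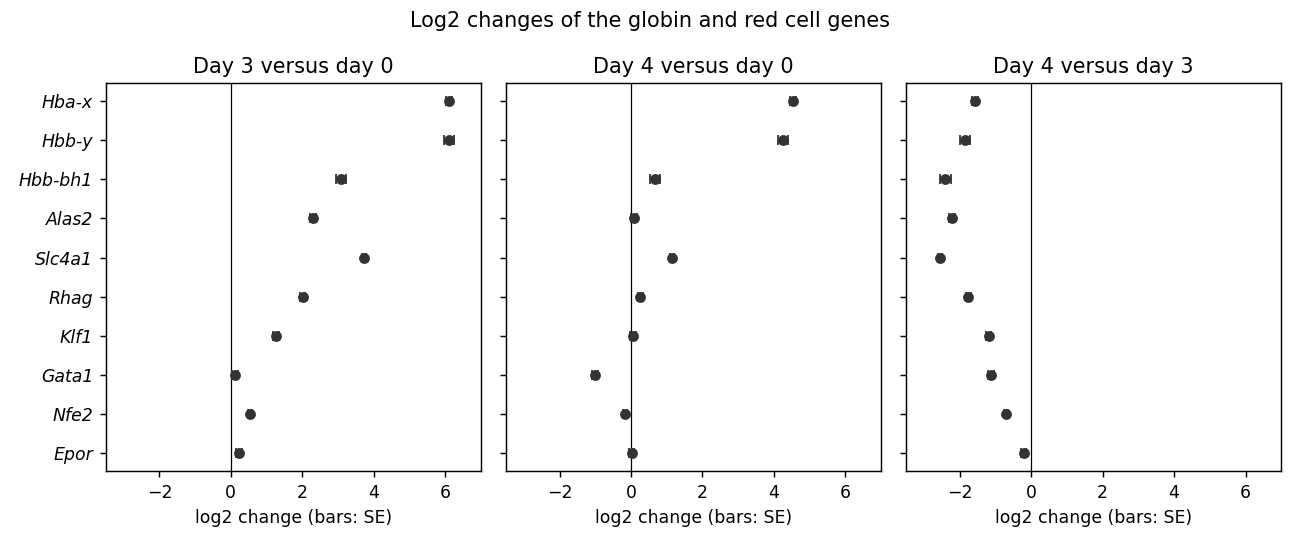
Log2 change of the 10 genes (vertical axis) in the 3 comparisons, with points for the change and bars for its SE from the fit over 6 arrays. The changes at day 3 versus day 0 run from 0.11 for Gata1 to 6.11 for Hba-x, and all 10 changes at day 4 versus day 3 are below 0, from −0.21 for Epor to −2.56 for Slc4a1.

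The genes were chosen for these changes and the comparisons share arrays, so counts of genes whose arrays did not overlap are given beside those of all genes as a description only. Both day 3 arrays were above both day 0 arrays in 10 of 10 genes (31.9% of all genes), and both day 4 arrays were below both day 3 arrays in 10 of 10 (25.2%). Relative to day 0, both day 4 arrays were higher in 6 genes (36.6%), lower in Gata1 and Nfe2 (36.4%), and overlapping in Alas2 and Epor. The median change of all genes was −0.05 at day 3 versus day 0, 0.00 at day 4 versus day 0 and 0.05 at day 4 versus day 3, while that of the 10 genes was 2.16, 0.17 and −1.67.

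The smaller differences depended on single arrays or on the scaling. For Epor at day 3 versus day 0 the difference was 0.13 with the arrays centred on the genes tested and 0.31 without day 3 replicate 2. For Rhag at day 4 versus day 0 it was 0.11 with centring on the genes tested and 0.36 with centring on all probe sets, and for Nfe2 −0.32 and −0.06 with the same settings. The day 3 minus day 0 difference of Gata1 was 0.00 with centring on the genes tested and 0.16 without day 0 replicate 1.

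All 10 genes were highest at day 3. Both day 3 arrays lay above the 4 others in 10 of 10 genes and in 12.0% of all genes. All 19938 genes were ordered by the lesser of the 2 differences, day 3 minus day 0 and day 3 minus day 4. The 10 genes were chosen by these same levels, so their places only describe that choice and are no test of it. The first 6 places were those of Slc4a1 (2.56), Hbb-bh1 (2.40), Alas2 (2.21), Hbb-y (1.85), Rhag (1.76) and Hba-x (1.58). Slc18a2, a monoamine transporter gene, came 7th with 1.57 and the nuclear RNA Malat1 8th with 1.56, and Hba-x and Slc18a2 differed by less than the SE of Hba-x. Klf1 was 20th, Nfe2 211th, Epor 1153rd and Gata1 2025th. In 10 alternatives (other scalings of the arrays, the mean of all probe sets of a gene, and each array left out in turn), Slc4a1, Hbb-bh1 and Alas2 kept places 1, 2 and 3, Hbb-y took place 4 or 5, Rhag 4 to 6, and Hba-x 5 to 11. The later places moved more, with 13 to 29 for Klf1, 152 to 319 for Nfe2, 762 to 1864 for Epor and 1330 to 3315 for Gata1.

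The gene with the course most like that of Hba-x was Hbb-y. Likeness was measured as the root mean square difference over the 6 arrays after the day 0 mean of each gene was subtracted, and Hbb-y stood at 0.23, first of 19937 other genes. The nearest genes outside the list followed at a distance, with Meis1, a homeobox gene, at 0.54, Foxc2 at 0.67, Nr2f2 at 0.70, the somatostatin gene Sst at 0.70 and the adhesion gene Alcam at 0.71. These 5 rose by 4.9 to 5.80 at day 3 versus day 0, and at day 4 versus day 3 they changed by −0.29 (Meis1), −0.13 (Foxc2), −0.10 (Nr2f2), −0.31 (Sst) and 0.15 (Alcam), against −1.58 for Hba-x. Hbb-bh1 stood at 2.84 from Hba-x, 300th of 19937, and its own course was nearer to that of Slc4a1 (0.48).

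The genes nearest to Gata1, which was close to flat up to day 3 and fell at day 4, were Fhl1 (0.10), Ints6l (0.12), Arap2 (0.12), Plch1 (0.13) and the semaphorin and VEGF co-receptor gene Nrp1 (0.14). The 5 nearest genes outside the list were looked up for each of the 10 genes, and 4 of these 50 entries were on the lists of red cell genes described next. They were Nr2f2 near Hba-x, and, near Klf1, Add2, which encodes beta-adducin of the red cell skeleton (0.13), the blood group gene Kel (0.14) and Trim10, a gene of late red cell maturation (0.16), while the other 8 genes had none. The genes outside the list that were nearest to Rhag, for example, began with the acetylcholine receptor gene Chrna3 (0.15) and Tent5c (0.23). Of the 10 genes, Alas2 (0.23) stood between these in the order of nearness to Rhag.

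**Figure D3:**
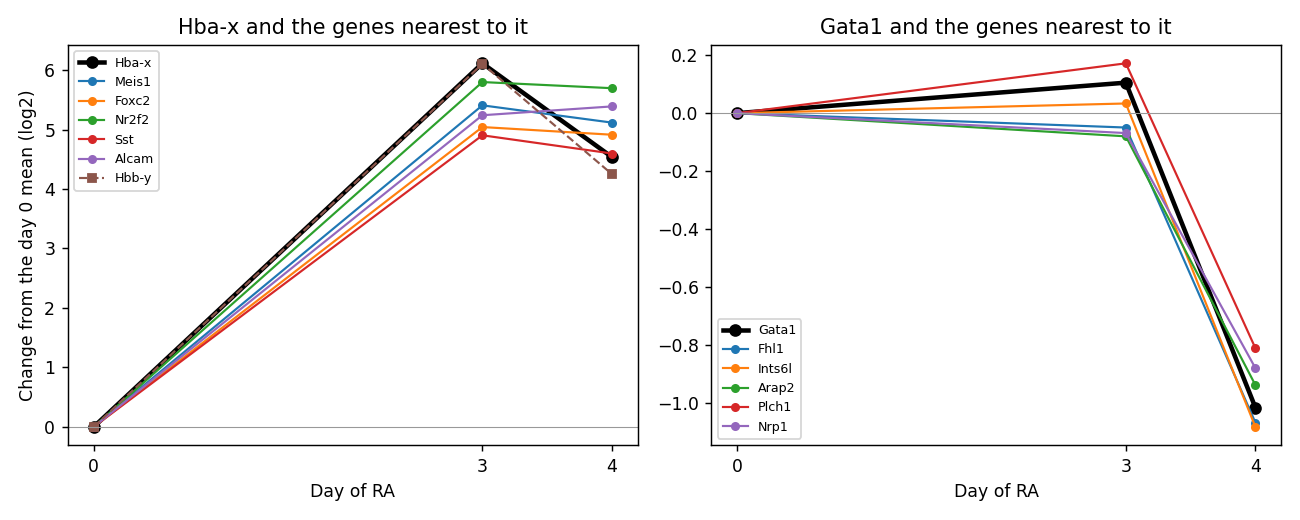
Change from the day 0 mean (log2, vertical axis) by day of RA (horizontal axis) for Hba-x with the 5 nearest unlisted genes and Hbb-y (left, dashed for Hbb-y), and for Gata1 with its 5 nearest genes (right). Hba-x and Hbb-y fall by 1.58 and 1.85 between day 3 and day 4, while the 5 unlisted neighbours of Hba-x change by −0.31 to 0.15. The 5 neighbours of Gata1 change by −1.11 to −0.81, against −1.12 for Gata1.

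Beyond the 10 genes, the wider set of red cell genes did not move as a block. Of 160 other genes on 7 lists of red cell biology, 56 rose, 61 fell and 43 did not pass at day 3 versus day 0 (limma, adjusted over all genes), with a median change of −0.02. These are 35.0% and 38.1% of the 160, against 23.8% and 28.1% of all genes. For day 4 versus day 0, 48 rose, 58 fell and 54 did not pass (median 0.00), and for day 4 versus day 3, 22 rose, 36 fell and 102 did not pass (median −0.01). The shares of all genes were 25.9% and 25.6% for day 4 versus day 0, and 15.8% and 12.2% for day 4 versus day 3. The arrays can be scaled in other ways. Centred on the median of the genes tested, the median gene moved to −0.15 at both days against day 0, and 47 rose and 76 fell at day 3, and 41 rose and 73 fell at day 4 versus day 0. Centred on the median of all probe sets, a setting added after the data were seen, the median gene moved to 0.18 at day 4 versus day 3, where 57 rose and 25 fell, and at day 4 versus day 0 61 rose and 51 fell, so the balance of rises and falls at day 4 has no settled direction in either comparison. Without day 3 replicate 1, 8 rose at day 4 versus day 3, and with the other arrays left out 1 at a time 15 to 26 rose. Both day 3 arrays lay above the 4 others in 34 of the 160 genes (21.2%, against 12.0% of all genes).

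Haem synthesis, beyond Alas2, was mixed. Of 19 genes measured, 6 rose, 7 fell and 6 did not pass at day 3 versus day 0. Ppox, the enzyme before the last step, rose by 1.12 and Fech, which puts iron into the ring, by 0.82. Hebp1, a haem-binding protein, rose by 0.70, while Hmox1, which breaks haem down, changed by −1.0 (adjusted p of 7.25e-05 or below for these 4). Clpx, which activates the first enzyme, had a change of 0.17 and Tmem14c, a mitochondrial protein of porphyrin transport, −0.16, and neither passed. Tmem14c did pass under other settings, for example with centring on the genes tested (−0.26, adjusted p = 0.0118). At day 4 versus day 3, Slc25a37, the mitochondrial iron carrier mitoferrin, had the largest fall of the 7 lists, with a change of −1.66 (adjusted p = 1.18e-04). It had 9.16 and 9.20 at day 0, 9.93 and 9.78 at day 3, then 8.29 and 8.10 at day 4, where it was lowest.

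Of 18 genes of iron uptake and storage, 3 rose (Steap4, Heph and Ncoa4), 8 fell and 7 did not pass at day 3 versus day 0. The transferrin receptor gene Tfrc, the main route of iron into red cell precursors, had 11.55 and 11.50 at day 0, 10.94 and 11.05 at day 3, then 10.34 and 10.27 at day 4. It fell by 0.53 at day 3 versus day 0 and by a further 0.69 at day 4 versus day 3 (adjusted p of 6.27e-04 or below). Erfe, the erythroid hormone that lowers hepcidin, changed by −0.91, the metalloreductase gene Steap4 by 0.81 and the ferroxidase gene Heph by 0.72 at day 3 (adjusted p of 2.69e-04 or below). The hepcidin gene Hamp (−0.13), which lay below 6 on all arrays, and the iron transporter gene Slc11a2 (−0.16) did not pass. Without day 0 replicate 1 Hamp passed with −0.32 (adjusted p = 0.0207), and without either day 4 array Slc11a2 passed (adjusted p = 0.0491).

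Of the other globins and haemoglobin partners, 9 genes were measured, and 2 rose and 2 fell at day 3. Cygb, cytoglobin, which is made in many tissues, rose by 3.02 and stayed there, with 8.62 and 8.25 at day 0, 11.52 and 11.40 at day 3, then 11.53 and 11.47 at day 4 (adjusted p = 1.11e-06). Cyb5r3, the reductase that keeps haemoglobin iron reduced, changed by −0.24 (adjusted p = 0.00551), Hbb-bh2 by 0.26 (0.0147) and the myoglobin gene Mb by −0.35 (0.0352). The adjusted p of Hbb-bh2 was 0.0758 without day 0 replicate 2 and 0.0850 when day 3 replicate 1 was left out. That of Mb was 0.182 without day 0 replicate 1, and leaving out either day 3 array gave 0.0989 and 0.120. The theta globin gene Hbq1b (0.32) and the haemoglobin-binding protein gene Hp (−0.16) did not pass, and both passed without day 0 replicate 1 (0.47, adjusted p = 0.0158, and −0.30, adjusted p = 0.0156). Hbb-bh2 and Hp lay below 6 on all arrays. The adult globin genes shared probe sets with several symbols and were not analysed here.

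The membrane and skeleton list held 30 genes, of which 13 rose, 12 fell and 5 did not pass at day 3 versus day 0. Epb42, protein 4.2, which binds band 3, likewise lay highest at day 3 and in between at day 4, with 6.42 and 6.46 at day 0, 8.06 and 8.08 at day 3, then 7.16 and 7.18 at day 4. It rose by 1.63 at day 3 and changed by −0.90 at day 4 versus day 3 (adjusted p = 4.92e-07 and 1.78e-04). Stomatin (Stom) rose by 2.07 and the glucose transporter gene Slc2a4, best known from muscle and fat, by 1.83, whereas the nucleoside transporter gene Slc29a1 changed by −1.96 (adjusted p of 6.29e-06 or below). Add2 rose by 1.12 at day 3 (adjusted p = 1.30e-05) and lost nearly all of it, with −0.97 at day 4 versus day 3 (adjusted p = 3.97e-04). Xk (0.13) did not pass. Tmod1, tropomodulin of the skeleton, did not pass on its brightest probe set (−0.15, adjusted p = 0.0564), and its other probe set peaked at day 3.

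**Figure D4:**
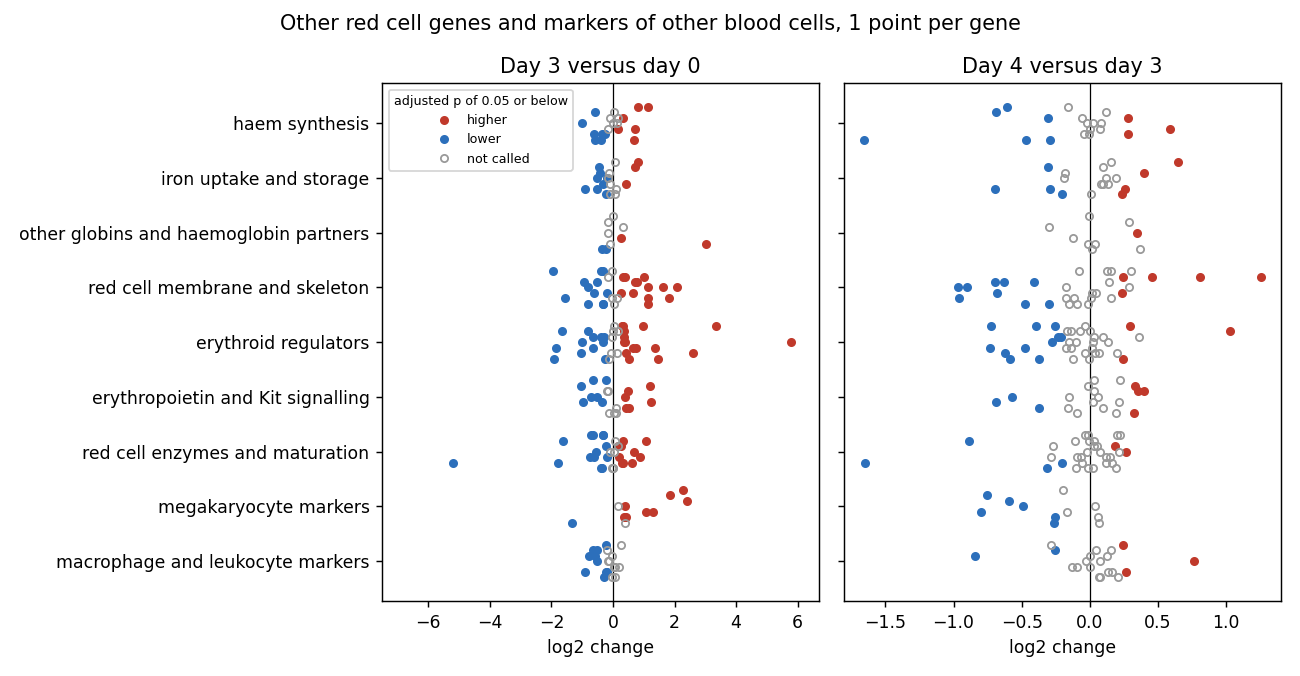
Log2 change (horizontal axis) of each gene on the 7 lists of red cell biology and on the lists of megakaryocyte and macrophage markers (vertical axis), at day 3 versus day 0 (left) and day 4 versus day 3 (right), filled where the adjusted p was 0.05 or below. Rises and falls stand side by side in the red cell lists, while 8 of 11 megakaryocyte markers rise at day 3 and 6 fall at day 4 versus day 3.

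Among 35 further erythroid regulators, 16 rose, 12 fell and 7 did not pass at day 3. The orphan nuclear receptor gene Nr2f2 rose by 5.80, the co-repressor gene Runx1t1 by 3.33 and Bcl11a, which silences embryonic globin genes in later red cells, by 2.60, while Myb, a factor of early blood precursors, changed by −1.92 (adjusted p of 6.71e-07 or below). Zbtb7a (0.17) and Gfi1b (−0.12) did not pass, and Zbtb7a passed without day 0 replicate 1 (0.31, adjusted p = 0.0134). Genes of 4 partners of Gata1, named after their values were seen, differed at day 3 versus day 0, where Tal1 and Lmo2 fell, Ldb1 rose (0.43, adjusted p = 2.68e-04) and Zfpm1 did not pass (0.04, adjusted p = 0.558). Tal1 had 9.57 and 9.61 at day 0, 8.65 and 8.46 at day 3, then 7.81 and 8.04 at day 4, and Lmo2 had 11.40 and 11.41, 9.50 and 9.62, and 9.08 and 9.09 on the same days. At day 3 versus day 0 Tal1 and Lmo2 changed by −1.04 and −1.84 (adjusted p of 7.45e-05 or below). Between day 4 and day 3 the regulator with the largest rise was Runx1 (1.03, adjusted p = 0.00154), which at 9.80 and 9.65 was still below its day 0 values of 10.41 and 10.29.

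Of 19 genes of erythropoietin and Kit signalling, 6 rose, 7 fell and 6 did not pass at day 3. The oxygen sensor gene Egln1 rose by 1.24 and the adaptor gene Gab1 by 1.19, and the phosphatase gene Ptpn6 and Stat5a, which acts below Epor, changed by −1.04 and −0.97 (adjusted p of 5.85e-05 or below). The ligand gene Epo, below 5 on each array, changed by −0.21 (adjusted p = 0.0531) and passed without either day 4 array (adjusted p = 0.0364), and Pim1 did not pass (−0.16). Of 31 genes of red cell enzymes and maturation, 10 rose, 14 fell and 7 did not pass. Alox15, a lipoxygenase of maturing reticulocytes, changed by −5.20, the carbonic anhydrase gene Car2 by −1.80 and Cited2 by −1.63, and Trim10 rose by 1.08 (adjusted p of 1.15e-04 or below). Car2 fell by a further 1.65 at day 4 versus day 3 (adjusted p = 7.16e-05). Cd36 (0.15) and Aqp9 (−0.10) did not pass, and Cd36 passed without day 3 replicate 1 (0.29, adjusted p = 0.0332). Aqp1 and Slc14a1, water and urea channels of the red cell membrane that other tissues also make, had the other leading rises at day 4 versus day 3 (1.26 and 0.81, adjusted p of 4.10e-04 or below).

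Markers of other cells that EBs can hold moved on the same days, and their part in the values of the 10 genes was not tested. Of 11 megakaryocyte markers, cells that share Gata1 and Nfe2 with red cells, 8 rose, 1 fell and 2 did not pass at day 3 versus day 0, and 6 fell and 5 did not pass at day 4 versus day 3. Their median changes were 0.43 and −0.26, against −0.05 and 0.05 for all genes. Itgb3 rose by 2.40, the platelet factor gene Pf4 by 2.26 and the receptor gene P2rx1 by 1.85 at day 3, and Fli1 changed by −1.33 (adjusted p of 9.40e-05 or below). The von Willebrand factor gene Vwf (0.15) and Ppbp (0.40) did not pass, and Ppbp, which lay below 6 on all arrays, passed without either day 4 array (adjusted p = 0.00441). The summed linear level of the 11 markers was 2598 to 2677 at day 0, 3267 to 3496 at day 3 and 2441 to 2730 at day 4, so it too was highest at day 3.

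Of 20 macrophage and leukocyte markers, 10 fell and 10 did not pass at day 3, and 12, among them the defining Ptprc, Csf1r, Adgre1 and Itgam, were below 6 on all arrays. Mpo (−0.92), Cd68 (−0.78), Laptm5 (−0.65) and Spi1 (−0.58) fell (adjusted p of 0.00303 or below). Lyz1 (0.26) and Tyrobp (−0.20) did not pass, but passed without either day 4 array (Lyz1, adjusted p = 0.0432) or without day 0 replicate 2 (Tyrobp, 0.0367). The summed level was 1594 to 1636 at day 0, 1182 to 1214 at day 3 and 1154 to 1172 at day 4.

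Of 20 markers of endothelium and blood progenitors, 11 rose, 7 fell and 2 did not pass at day 3, with Emcn (4.81), Cd34 (2.61) and Mecom (2.37) rising and the early regulator Etv2 (−3.56) falling (adjusted p of 2.82e-06 or below). Tek (−0.19) and Sox17 (−0.06) did not pass, and Tek passed without day 0 replicate 2 (−0.34, adjusted p = 0.0384). At day 4 versus day 3, 9 of the 20 fell and 11 did not pass. The median changes of the 20 were 0.43 at day 3 versus day 0 and −0.24 at day 4 versus day 3. These are close to the medians of the megakaryocyte markers. The summed level of the 20 was 13741 to 14099 at day 0, 13406 to 14295 at day 3 and 11737 to 11951 at day 4. Of 22 markers of yolk sac endoderm, the layer beside the blood islands, 7 rose, 4 fell and 11 did not pass at day 3, with Gata6 (1.95), Gata4 (1.77), Apoa1 (1.73) and Dab2 (1.61) rising (adjusted p of 2.13e-04 or below). Hnf4a (−0.14) and Fgb (0.21) did not pass, Fgb passed without either day 4 array (adjusted p = 0.0342), and 8 of the 22, among them Afp and Alb, were below 6 on all arrays. The median change of the 22 was only 0.03 at day 3 versus day 0 and 0.17 at day 4 versus day 0. Their summed linear level, to which bright genes add most, was 5053 to 5180 at day 0, 14192 to 14571 at day 3 and 14184 to 14298 at day 4. The sum therefore does not describe a rise of the whole list. The stem cell markers Tdgf1 (−4.84), Pou5f1 (−4.08), Lin28a (−3.64) and Sall4 (−3.29) had the largest falls of their list at day 3 (adjusted p of 9.12e-07 or below). The 13 of them summed to 14107 to 14472 at day 0, 1927 to 1951 at day 3 and 1621 to 1744 at day 4. Over the 5 lists of other cells together, 85 genes were measured, and 5 rose and 20 fell at day 4 versus day 3. With centring on all probe sets 24 rose and 13 fell, so this balance has no settled direction either. Without day 3 replicate 2 or day 4 replicate 2, 13 fell, and 2 to 3 rose without any 1 of the day 3 or day 4 arrays.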

How the data were processed

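Total RNA of 6 EB samples was measured on Mouse Gene 1.0 ST arrays from Affymetrix. The authors ran Robust Multichip Average (RMA) in Partek, and the deposited table holds its log2 intensities. RMA corrects the background, makes the distributions of the arrays alike by quantile normalization and summarises each probe set. A change is therefore relative to the other RNA on the array, small changes of dim genes are understated, and the number of arrays limits the precision.

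Of 35557 probe sets, 21789 had 1 gene symbol in the platform annotation, 1621 had several and 12147 had none here. The RefSeq table (GRCm38.p6) held the gene number of 21698 of those with 1 symbol, with 0 symbols updated. Where a gene had several probe sets (999 genes), the brightest on average was taken, so 19938 genes were tested. Each of the 10 genes had 1 probe set.

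The days were compared with limma 3.58.1 in R 4.3.3 (lmFit and eBayes), all 6 arrays in 1 fit with a mean for each day, which left 3 residual and 4.07 prior degrees of freedom. The tests were two-sided with Benjamini-Hochberg adjustment over all genes and a limit of 0.05. The 10 genes, the lists and the tests were chosen with earlier results of these data known. Named from each list were up to 4 of the called genes and 2 of the uncalled ones, by size of change at day 3 versus day 0, and over the red cell lists 3 in each direction at day 4 versus day 3, with the 5 genes nearest to Hba-x and to Gata1. Among the nearest genes, small RNAs, odorant and pheromone receptors and unnamed or predicted loci were passed over. Other genes were named after their values were seen. The alternatives were centring of the arrays, cyclic loess, an intensity trend with robust moderation, a minimum mean of 6, the mean of all probe sets of a gene, only the arrays of the days compared, the array number as a block, and leaving out each array in turn.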

Additional observations from a re-analysis of the deposited data

How the results depend on the processing

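The changes of the 10 genes had the same direction in the alternatives except for 3 small ones at day 4 versus day 0, where Alas2 spanned −0.05 to 0.22, Klf1 −0.08 to 0.17 and Epor −0.13 to 0.13. The counts of list genes at day 4 versus day 3 depended most on the processing. For the red cell lists 22 rose, against 57 with centring on all probe sets, which was chosen after seeing the data, 35 with an intensity trend and robust moderation, and 8 to 26 when 1 array was left out. For the other cell types 5 rose, against 2 with centring on the genes tested, 24 with centring on all probe sets, 1 with cyclic loess, 2 with a minimum mean of 6, and 2 to 5 when 1 array was left out. For those types 20 fell, against 13 with centring on all probe sets and 13 to 17 when 1 array was left out. For Tmod1 the mean of its probe sets turned the change to 0.68 at day 3 versus day 0 (adjusted p = 1.12e-04) and to −0.58 at day 4 versus day 3 (adjusted p = 0.00147). Of 3108 tests of named genes repeated under an alternative, 2940 stayed on their side of the threshold, 44 lost the call, 122 gained it and 2 reversed. Centring on the genes tested lowered the median gene at day 3 versus day 0 to −0.15. In that setting Tmem14c (adjusted p = 0.0118), Gfi1b (0.0144), Pim1 (0.0280) and Aqp9 (0.0282), among others, passed as lower at day 3.

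Arrays of the same number deviated together at correlations of 0.03, 0.06 and 0.08. Such low values do not settle whether arrays of the same number share a culture or batch. With the replicate block, 9 markers of other cell types rose at day 4 versus day 3, against 5 without it, and 25 red cell list genes rose, against 22. Over all genes, the split at day 4 versus day 0 was 5154 higher and 5106 lower, against 3781 and 8521 with centring on the genes tested and 7126 and 3915 with centring on all probe sets. At day 3 versus day 0 it was 4749 and 5596, against 3889 and 8495 with centring on the genes tested. At day 4 versus day 3 it was 3156 and 2437, against 8825 and 1381 with centring on all probe sets, 2268 and 3081 with centring on the genes tested, 2648 and 2810 with cyclic loess, and 1355 to 2998 higher and 1370 to 2278 lower when 1 array was left out. The cause of these differences was not tested.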

Other observations

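Tmod1, which encodes tropomodulin, a protein that caps actin filaments in the red cell skeleton, had 2 probe sets that did not follow each other. The second, 10504692, was examined after the data were seen. Its values were 6.82 and 6.53 before RA, 8.20 and 8.16 after 3 days and 6.77 and 6.77 after 4 days, which is the course of Alas2 and Klf1, with a difference of 1.5 at day 3 versus day 0 and −1.40 at day 4 versus day 3. The brightest, 10504690, gave 7.34 and 7.29 on the day 0 arrays, 7.15 and 7.18 on those of day 3, and 7.44 and 7.38 on those of day 4. Which transcripts of Tmod1 the probe sets measure was not tested.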
